A study of Mus musculus with 12 samples.

Results

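Expression of 9 transcription regulators of bladder smooth muscle was followed across whole newborn mouse bladders: Myocd, Srf, Mef2a, Mef2c, Mef2d, Foxf1, Tshz3, Tbx18 and Gata6. They were chosen by name, and every probe set whose single gene symbol was one of these 9 genes was taken, which gave 26 of the 45037 probe sets and 9 of the 18193 genes on the array. After the filter on low values 24 of the 26 probe sets, with at least 1 for each gene, were tested. For each gene the probe set of highest mean level stood for the gene and is called its reference probe set, and the others are given beside it.

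RNA was measured on 12 one-colour Affymetrix arrays, 1 for each unpooled bladder sample from FVB/N mice at postnatal day 1, all labelled male. In the SMGA/EGFP group (3 arrays) the promoter of smooth muscle gamma actin, Actg2, drove the green fluorescent protein EGFP. In the SMAA/EYFP group (3 arrays) the promoter of smooth muscle alpha actin, Acta2, drove the yellow fluorescent protein EYFP. The wild type group (6 arrays) carried no reporter, and all 3 groups share the FVB/N background and the age. The labels name no founder line or copy number, and reporter litters had a transgenic father and an FVB/N mother, so genotype cannot be told apart from the effects of father and litter. The labels do not say whether the arrays of a group came from separate litters, so p-values measure only the spread between these samples.

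Serum response factor, encoded by Srf, binds a short DNA element called the CArG box, and myocardin, encoded by Myocd, is its coactivator in smooth and cardiac muscle. Together they turn on contractile genes of the bladder wall, among them the 2 actin genes whose promoters drive these reporters. The MEF2 proteins are related DNA-binding factors controlled by calcium and kinase signals, and Foxf1, Tshz3, Tbx18 and Gata6 act in the mesenchyme of the developing gut and urinary tract, from which smooth muscle arises.

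Promoter sequences were read from a RefSeq table of build GRCm38.p6, in which each window runs from 250 bases before to 50 bases after a gene's start, and 6 of the 9 genes matched, with 8 windows in all. Myocd, Foxf1 and Gata6 were not matched. The windows were searched on both strands for the CArG box, by its name the consensus of serum response factor, with no mismatch allowed. It was found in the Srf window and in none of the other 7. The window of Acta2, whose promoter drives the EYFP reporter, held no exact box either, and Actg2 was not matched. Of all 32851 windows in that set, 535 (1.63%) held a box. The Srf window is shown because its own product binds elements of this type, and binding to this window was not tested. It lies at chr17:46556113-46556412 on the minus strand, is written 5′ to 3′, and has its 2 boxes in capitals, at -82 to -73 and -62 to -53 from the start.
Srf promoter: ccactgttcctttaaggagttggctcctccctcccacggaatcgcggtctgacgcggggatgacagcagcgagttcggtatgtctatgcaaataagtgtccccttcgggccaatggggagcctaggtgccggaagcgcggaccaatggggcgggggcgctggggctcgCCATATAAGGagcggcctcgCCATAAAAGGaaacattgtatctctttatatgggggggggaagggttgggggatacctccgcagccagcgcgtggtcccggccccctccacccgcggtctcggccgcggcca

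Among the related genes listed further on, 2 of 21 windows of smooth muscle targets (9.52%), 7 of 15 windows of immediate early and cytoskeletal targets (46.7%, from 3 of 10 genes, some with several starts) and 1 of 22 windows of cofactors (4.55%) held a box. The smooth muscle targets with a box were Myl9, a myosin light chain, and Vcl, the adhesion protein vinculin. The early and cytoskeletal targets with a box were Egr2, Actg1 and Fhl2, and the cofactor was Hopx. All the boxes found in these genes, and the bases around them, are set side by side to show how far the core varies, with the box in capitals and each line 5′ to 3′ on the strand of the gene.
Srf, first box, chr17:46556225-46556254 minus strand: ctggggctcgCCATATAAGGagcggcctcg
Srf, second box, chr17:46556205-46556234 minus strand: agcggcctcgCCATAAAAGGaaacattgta
Myl9, chr2:156775293-156775322 plus strand: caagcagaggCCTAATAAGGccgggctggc
Vcl, chr14:20929161-20929190 plus strand: cccactatgcCCTTATAAGGagcgccccgc
Egr2, first box, chr10:67537484-67537513 plus strand: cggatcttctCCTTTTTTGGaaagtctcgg
Egr2, second box, chr10:67537787-67537816 plus strand: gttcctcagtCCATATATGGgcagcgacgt
Actg1, chr11:120348566-120348595 minus strand: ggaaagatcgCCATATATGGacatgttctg
Fhl2, first box, chr1:43196838-43196867 minus strand: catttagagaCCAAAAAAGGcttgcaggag
Fhl2, second box, chr1:43163973-43164002 minus strand: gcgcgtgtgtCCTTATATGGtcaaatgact
Hopx, chr5:77115187-77115216 minus strand: taacccgagtCCAAATAAGGaagctgggga
A match describes letters in a window and is not evidence of binding, and a window without one says nothing about elements elsewhere in a gene.

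The deposited values are linear intensities, so levels are given as intensities and differences on the log2 scale of normalized values. The record numbers in the labels follow each other without a break. They were split, where the SMAA/EYFP arrays begin, into 2 runs of 6 arrays. The first run holds SMGA/EGFP and wild type 1 to 3, the second SMAA/EYFP and wild type 4 to 6. Whether a run was a scan, a batch or a litter is not stated in the labels. Each comparison with wild type is also given with the run as a block. The block compares a reporter group with the 3 wild-type arrays of its own run, and the result is called the within-run difference. Between the reporter groups the block takes the SMAA/EYFP within-run difference from the SMGA/EGFP one. It therefore also subtracts the difference between the wild-type arrays of the 2 runs. Array correlations ran from 0.953 to 0.971 within groups and from 0.948 to 0.974 between groups. One array stood apart from its label: wild type 4, labelled male, read 29604 for Xist against 80.1 to 250.4 on the other 11 arrays, and 26.7 for the Y-linked gene Eif2s3y against 3284 to 5096. Results are given with this array, and without it where stated. Contractile markers were high, which bears on smooth muscle and not on bladder in particular. Acta2 and Actg2 ranked 7 and 29 among all probe sets by mean level, and none of the 8 smooth muscle markers was at 0 on any array. None of the 10 urothelial markers was at 0 either, the lowest being Trp63 with a median intensity of 4622.

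None of the 9 regulators passed the test in any comparison; a probe set with an adjusted p under 0.05 is said to be called. In SMGA/EGFP against wild type, 0 of the 24 probe sets had a limma adjusted p under 0.05, and 1 had an unadjusted p under 0.05; over all 22518 probe sets tested the corresponding shares were 0.0622% and 6.94%. In SMAA/EYFP against wild type, 0 passed after adjustment and 5 had an unadjusted p under 0.05, against 0% and 4.81% of all probe sets tested. The 5 were the Myocd and Tshz3 reference probe sets, 2 further probe sets for Mef2a and 1 for Mef2c.

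Most of the regulators read slightly lower in the reporter bladders. In SMGA/EGFP 8 of the 9 reference probe sets lay below wild type, with a median log2 difference of -0.16, where the median over all 11730 genes tested was -0.02 and 54.0% of those genes lay below wild type. In SMAA/EYFP all 9 lay below wild type, with a median of -0.16, where all genes had a median of 0.01 and 48.2% below. Fitting the run as a block gave a median of -0.08 in SMGA/EGFP, with 7 of 9 below, and -0.23 in SMAA/EYFP, with 9 of 9 below. Without wild type 4 the counts were 8 and 8 of 9, with medians of -0.16 and -0.15. Both comparisons use the same wild-type arrays, so their shared direction is not independent. In whole bladder RNA, fewer cells of a type and less RNA per cell cannot be told apart.

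**Figure D1:**
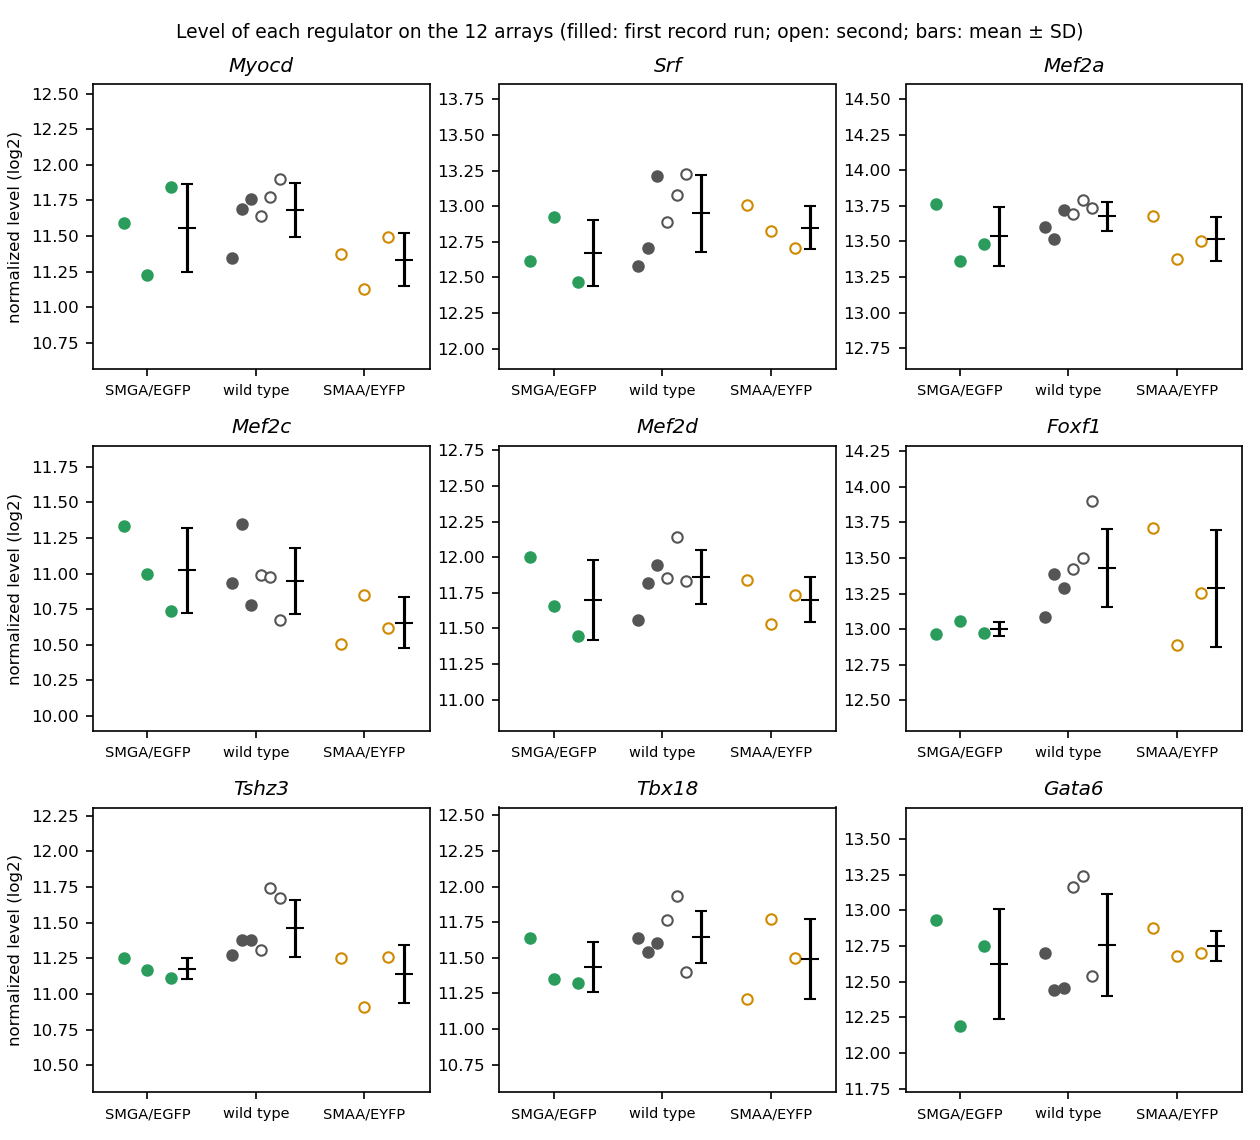
Normalized log2 level of the reference probe set of each of the 9 regulators (one panel per gene, each axis spanning 2 log2 units) on the 3 SMGA/EGFP, 6 wild-type and 3 SMAA/EYFP arrays; filled points are the first run of record numbers, open points the second, and bars are the group mean ± SD. The points of the groups overlap in most panels; the SMGA/EGFP points for Foxf1 and the reporter points for Tshz3 lie below all wild-type points.

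Myocd was measured by 2 probe sets. Its reference probe set, 1425978_at, read 3024, 2384 and 3697 in SMGA/EGFP, 2609, 2242 and 2886 in SMAA/EYFP, and from 2596 through a median of 3356 to 3781 in wild type. The SMGA/EGFP values spanned nearly the whole wild-type range, while the SMAA/EYFP values sat at or below its lower part and overlapped it. The log2 difference from wild type was -0.35 ± 0.15 (SE) in SMAA/EYFP, with a 95% interval from -0.67 to -0.03, an unadjusted limma p of 0.0343 and an adjusted p of 0.991. Within its run it was -0.44, and without wild type 4 it was -0.36. In SMGA/EGFP the difference was -0.13 ± 0.15 (adjusted p 0.859), and leaving out SMGA/EGFP 2, the lowest array, turned it to 0.04. The second probe set, 1425808_a_at, gave -0.41 in SMGA/EGFP and -0.32 in SMAA/EYFP, neither past the test, and had an across-array correlation of 0.66 with the first.

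Srf, the partner of myocardin, read 6076, 7751 and 5679 in SMGA/EGFP on its reference probe set 1418255_s_at. The SMAA/EYFP arrays read 8303, 7272 and 6671, and the wild-type arrays ran from 6070 through a median of 8141 to 9804. Both reporter groups overlapped wild type, and wild type itself spanned the widest range. The log2 difference was -0.28 ± 0.15 (95% interval -0.60 to 0.04, adjusted p 0.744) in SMGA/EGFP and -0.10 ± 0.15 (-0.43 to 0.22, adjusted p 0.994) in SMAA/EYFP. These intervals leave room for a decrease of up to 0.60 and an increase of up to 0.22 on the log2 scale. Within the runs the differences were -0.17 and -0.22. The second probe set, 1418256_at, lay at -0.20 and -0.23.

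Mef2a, the MEF2 member with the most probe sets here, had 5 tested out of 6. Its reference probe set 1427185_at read 13577, 10515 and 11354 in SMGA/EGFP, 13436, 10618 and 11642 in SMAA/EYFP, and from 11493 through a median of 13407 to 14233 in wild type. On the normalized scale 2 of 3 arrays in each reporter group were below every wild-type array, although SMAA/EYFP 3, with a deposited 11642, was not below the lowest deposited wild-type value. Differences from wild type were -0.14 ± 0.10 in SMGA/EGFP (adjusted p 0.786) and -0.16 ± 0.10 in SMAA/EYFP (adjusted p 0.991). Of the other probe sets, 1427186_a_at had the lowest SMAA/EYFP value, -0.45 ± 0.17 (unadjusted p 0.0183, adjusted p 0.991), with deposited levels of 1681, 3029 and 2379 against 2325 to 3860 in wild type. Probe set 1452347_at gave -0.20 ± 0.09 there (unadjusted p 0.0389). The dimmest tested one, 1442623_at, pointed the other way in SMAA/EYFP at 0.13 ± 0.37, and its SMGA/EGFP arrays read 628.9, 113.8 and 530.3, so that array 2 alone set its difference. Pairs of Mef2a probe sets correlated across the 12 arrays from -0.54 to 0.86, so they cannot be read as repeated measurements of a single quantity.

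Mef2d had 3 probe sets, which disagreed. The reference probe set 1434487_at read 3997, 3211 and 2816 in SMGA/EGFP, 3621, 2994 and 3416 in SMAA/EYFP, and from 3016 through a median of 3664 to 4462 in wild type, with overlap in both comparisons. The log2 difference was -0.16 ± 0.14 in both reporter groups, with adjusted p of 0.817 and 0.994. Probe set 1437300_at had a correlation of -0.56 with the reference across arrays and differences of 0.01 and -0.17. Probe set 1421388_at gave -0.27 and 0.31, and its wild-type values ran from 152.4 on wild type 1 to 427.0 on wild type 2.

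Mef2c had the largest difference between the 2 reporter groups among the reference probe sets, though not with the run as a block, where that of Myocd was larger (0.39 against 0.23), nor with arrays centred on their median, where that of Foxf1 was (-0.44 against 0.26). On the reference probe set 1424852_at the SMGA/EGFP arrays read 2548, 2029 and 1731, the SMAA/EYFP arrays 1390, 1853 and 1558, and the wild-type arrays ran from 1565 through a median of 1973 to 2634. SMGA/EGFP 1 and wild type 2 were the highest arrays, and 2 of the 3 SMAA/EYFP arrays lay below all of wild type. The difference from wild type was 0.07 ± 0.16 in SMGA/EGFP (adjusted p 0.936) and -0.30 ± 0.16 in SMAA/EYFP (adjusted p 0.991); leaving out SMGA/EGFP 1 turned the first to -0.08. The other 3 tested Mef2c probe sets in SMAA/EYFP all lay below wild type, by -0.50, -0.48 and -0.54; the last of them, 1451507_at, had an unadjusted p of 0.0165. Correlations between Mef2c probe sets ran from 0.47 to 0.90.

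Set directly against each other, the reporter groups differed by 0.37 ± 0.19 on the Mef2c reference probe set, SMGA/EGFP higher (unadjusted p 0.0687, adjusted p 0.566). On 1421027_a_at, with 3407, 1688 and 1930 against 1042, 1531 and 991.1, the difference was 0.92 ± 0.31 (adjusted p 0.453). On 1451507_at, with 1460, 1210 and 925.0 against 509.8, 916.0 and 727.7, it was 0.68 ± 0.23 (adjusted p 0.443), and on 1451506_at it was 0.43 ± 0.30. Arrays of the reporter groups did not overlap on these 3 probe sets, and did not overlap on 14.5% of all probe sets tested either. When the run was a block the 4 differences were 0.23, 0.29, 0.62 and 0.05. On 1421027_a_at the wild-type arrays of the first run stood above those of the second by 0.63 ± 0.27 (unadjusted p 0.0393, adjusted p 0.604), without overlap.

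Mef2c is also a gene of skeletal muscle, endothelium and leukocytes, and markers of these types are given beside it. The skeletal muscle score, the mean log2 deviation of 9 tested markers from their own means, was 1.04, 0.87 and -0.48 in SMGA/EGFP, -0.75, 0.28 and -0.76 in SMAA/EYFP, and -0.47 to 1.36 in wild type. It was highest on wild type 2 and SMGA/EGFP 1, the same arrays on which the Mef2c reference was highest. None of the markers was called in any comparison. In SMGA/EGFP 4 of 9 had higher levels than wild type and 5 lower, with a median of -0.04. The largest difference there was 2.24 for Mylpf, a fast myosin light chain. In SMAA/EYFP 1 of the 9 markers had a higher level than wild type, and the median was -0.31. Their summed intensity ran from 78833 to 111477, 78775 to 108450 and 82859 to 109025 in SMGA/EGFP, SMAA/EYFP and wild type, and no marker was at 0, the lowest being Myog with a median of 76.7. Endothelial markers were lower than wild type in 8 of 8 cases in both reporter groups, with medians of -0.28 and -0.23, none called. Their summed intensity was 12307 to 17678 in SMGA/EGFP, 13898 to 17842 in SMAA/EYFP and 16561 to 20094 in wild type, and none was at 0. Leukocyte markers lay below wild type in 6 of 6 tested genes in SMGA/EGFP (median -0.30) and 4 of 6 in SMAA/EYFP (median -0.08), none called, with summed intensities of 7397 to 11551, 9754 to 11319 and 10374 to 13334 in wild type, and none at 0. The part of these cell types in the Mef2c values was not tested.

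**Figure D2:**
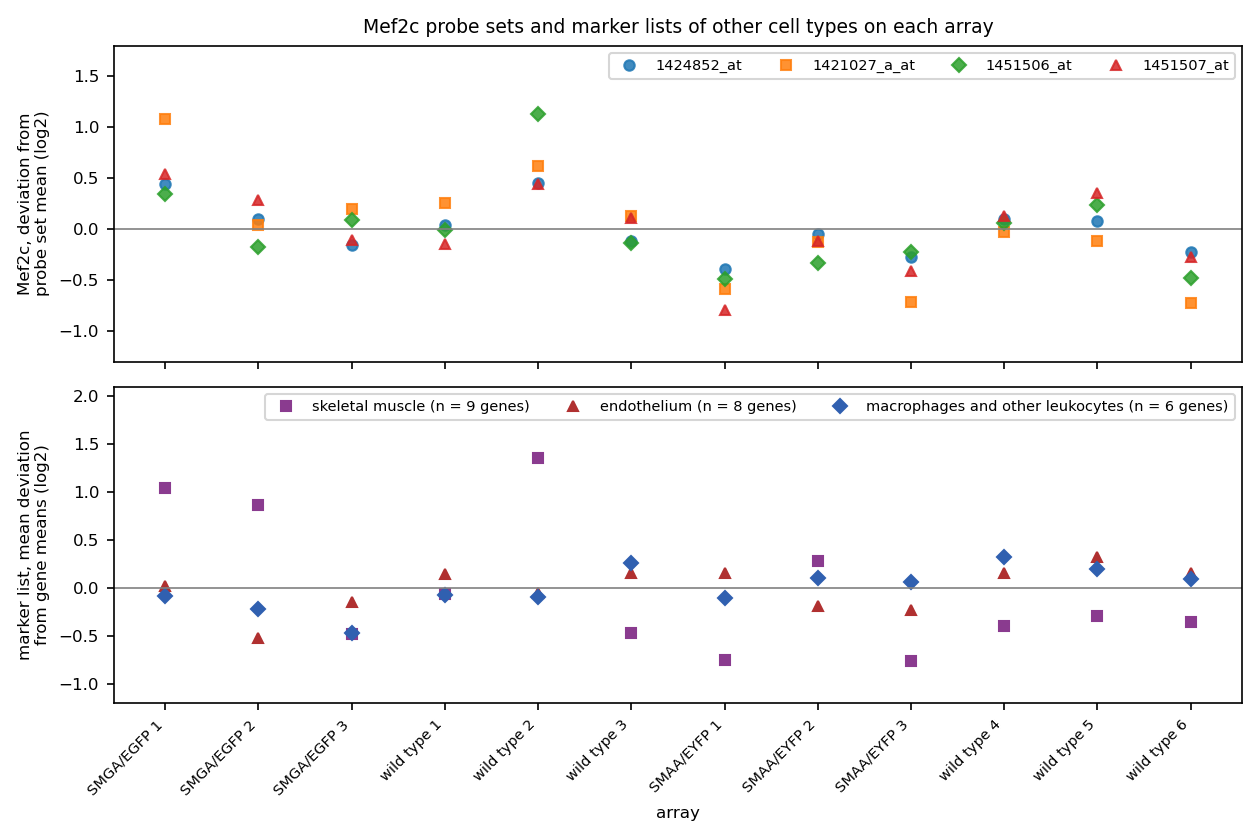
Upper panel, log2 deviation of 4 Mef2c probe sets from their own means on each of the 12 arrays; lower panel, mean log2 deviation of skeletal muscle (9 genes), endothelium (8 genes) and leukocyte (6 genes) markers on the same arrays. Mef2c and the skeletal muscle markers are both high on SMGA/EGFP 1 and wild type 2, with skeletal muscle scores of 1.04 and 1.36.

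Foxf1, a forkhead factor of visceral mesenchyme downstream of Hedgehog signals, had the largest difference of any regulator in SMGA/EGFP. The reference probe set 1434939_at read 7769, 8549 and 8032 there, 13782, 7645 and 9812 in SMAA/EYFP, and from 8477 through a median of 10698 to 15730 in wild type. The 3 SMGA/EGFP arrays were tightly grouped and all below the wild-type arrays after normalization, although the deposited 8549 exceeds the lowest wild-type value. The difference was -0.43 ± 0.17 on the log2 scale (95% interval -0.80 to -0.07), a level 0.742 times that of wild type, with an unadjusted p of 0.0244 and a limma adjusted p of 0.712. Within its run it was -0.25, since the 3 wild-type arrays of the first run themselves lay below those of the second by 0.35, without overlap. In SMAA/EYFP the difference was -0.14 ± 0.17 (adjusted p 0.994), and without SMAA/EYFP 2 it turned to 0.05. The dimmer probe set 1423013_at gave -0.34 ± 0.28 and -0.28 ± 0.28.

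Tshz3, a zinc finger factor needed for smooth muscle of the ureter, has a single probe set, 1435337_at. It read 2417, 2280 and 2234 in SMGA/EGFP, 2390, 1922 and 2433 in SMAA/EYFP, and from 2465 through a median of 2643 to 3417 in wild type. All 6 reporter arrays lay below all 6 wild-type arrays, but narrowly. The highest reporter array read 2433 and the lowest wild-type array 2465, or 11.26 and 11.27 on the normalized log2 scale. How many of all probe sets separate the 6 reporter arrays from wild type in this way was not counted. Differences were -0.28 ± 0.13 in SMGA/EGFP (95% interval -0.57 to 0.00, unadjusted p 0.0503, adjusted p 0.718) and -0.32 ± 0.13 in SMAA/EYFP (-0.60 to -0.04, unadjusted p 0.0293, adjusted p 0.991). The within-run values were -0.17 and -0.44. Without wild type 4 the differences from the remaining wild-type arrays of both runs were -0.31 and -0.35. Leaving out single arrays kept the 2 differences between -0.32 and -0.23 and between -0.38 and -0.20. Both use the same wild-type arrays. Foxf1 and Tshz3 were the 2 of 9 reference probe sets without overlap in SMGA/EGFP, and Tshz3 the only 1 in SMAA/EYFP, where 2.73% and 3% of all probe sets tested did not overlap.

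Tbx18, a T-box factor of the mesenchyme around the forming ureter, read 3104, 2595 and 2597 in SMGA/EGFP on its reference probe set 1429974_at. The SMAA/EYFP arrays read 2312, 3534 and 2885, and wild type ran from 2626 through a median of 3106 to 3901. Of the SMGA/EGFP arrays 2 were just below the wild-type range, SMAA/EYFP 1 was below it and the lowest of all 12 arrays, and the other SMAA/EYFP arrays lay inside it. Differences were -0.21 ± 0.14 (adjusted p 0.779) and -0.16 ± 0.14 (adjusted p 0.994), and the second probe set, 1449871_at, gave -0.20 and -0.14.

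Gata6, a zinc finger factor of smooth muscle and mesoderm, varied more within groups than between them. Its reference probe set 1425464_at read 7610, 4666 and 6910 in SMGA/EGFP, 7554, 6605 and 6637 in SMAA/EYFP, and from 5515 through a median of 6274 to 9758 in wild type. Wild type 4 and 5 were high, at 9103 and 9758, and SMGA/EGFP 2 was the lowest array of all. Differences were -0.13 ± 0.20 in SMGA/EGFP (adjusted p 0.892) and -0.01 ± 0.20 in SMAA/EYFP (adjusted p 0.9995), with intervals of -0.56 to 0.29 and -0.43 to 0.42. Within the runs they became 0.09 and -0.23. Between the wild-type runs Gata6 differed by -0.45 ± 0.20, first run lower (unadjusted p 0.0411, adjusted p 0.604), and by -0.36 without wild type 4. A second probe set, 1425463_at, followed the reference closely across arrays (correlation 0.97), while 1443081_at, read at 149.2 to 360.9, did so weakly (0.34) and was lower in SMGA/EGFP than in SMAA/EYFP by a log2 difference of -0.68 ± 0.29 (unadjusted p 0.0317, adjusted p 0.507).

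**Figure D3:**
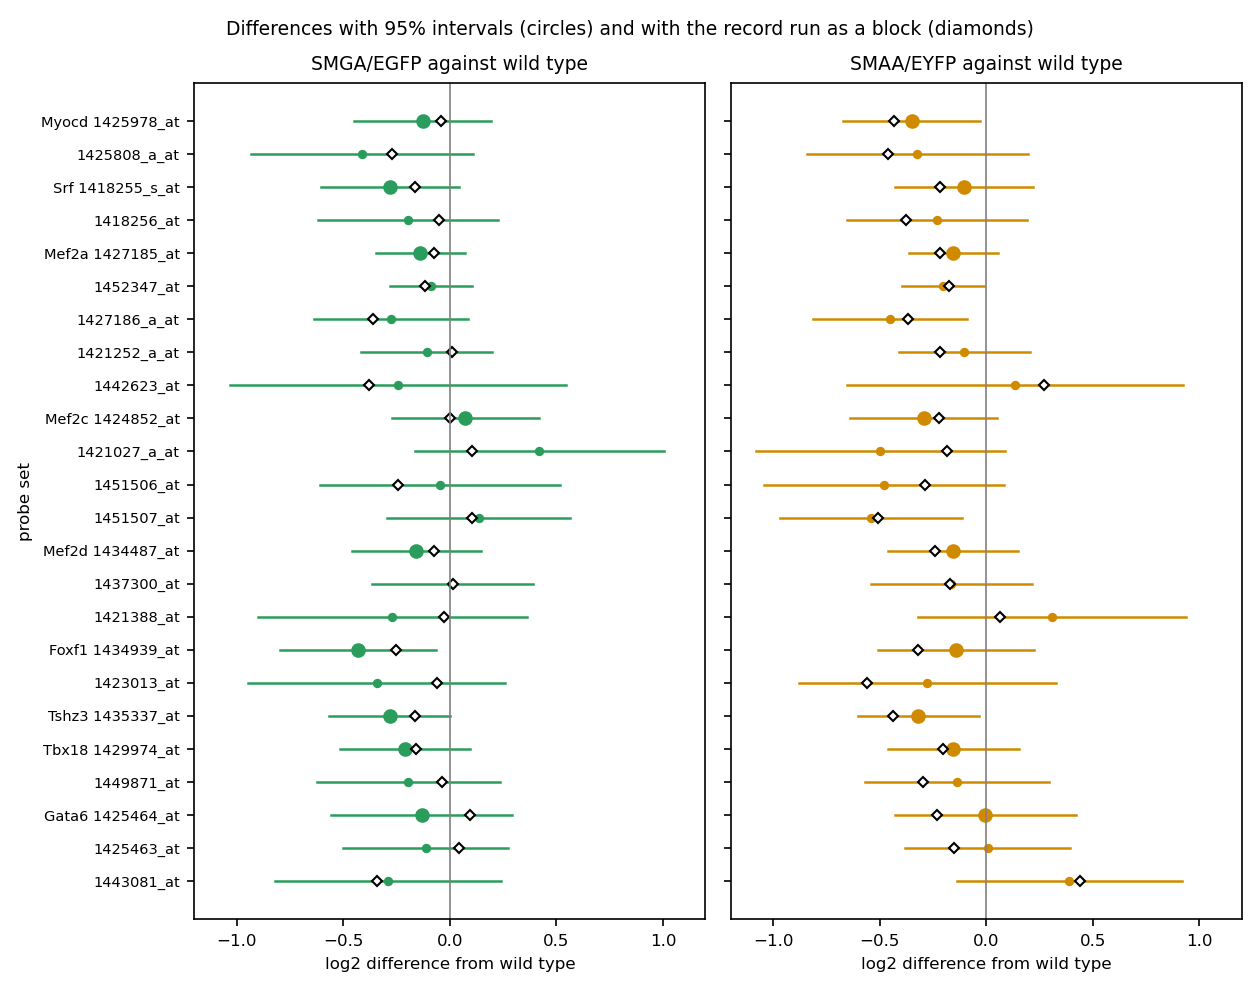
Log2 difference from wild type of the 24 tested probe sets of the 9 regulators in SMGA/EGFP (left, n = 3) and SMAA/EYFP (right, n = 3) against the same 6 wild-type arrays; large circles are reference probe sets, small circles the others, lines are 95% intervals and diamonds are differences within the run. Most circles lie left of 0, and most intervals cross it.

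Levels of mesothelial markers differed between the groups beside these mesenchymal factors. In SMGA/EGFP 6 of 6 mesothelial markers were below wild type, and Gpm6a (-2.74), Lrrn4 (-2.75) and Muc16 (-2.07), membrane proteins of the bladder's outer lining, were called with limma adjusted p of 0.00557, 0.00946 and 0.0167. In SMAA/EYFP 5 of 6 were above wild type, none called. Their summed intensity was 15469 to 16972 in SMGA/EGFP, 26566 to 35459 in SMAA/EYFP and 17676 to 27332 in wild type. Without wild type 4 the number called in SMGA/EGFP was 2. Within the run the differences were -2.27 for Gpm6a and -2.26 for Lrrn4, both called (adjusted p 0.0196 and 0.0345), and -1.63 for Muc16, no longer called (0.0553). Between the reporter groups Gpm6a (-3.46), Muc16 (-2.74), Lrrn4 (-3.32) and Msln (-2.35), the mesothelial surface protein mesothelin, were lower in SMGA/EGFP and called, with limma adjusted p from 0.002 to 0.0178, 5 of 6 without wild type 4, and with the run as a block none of the 6 was called. The first wild-type run itself lay below the second by a log2 difference of -0.94 for Gpm6a, -0.98 for Lrrn4 and -0.87 for Muc16, none called. Neuronal and Schwann cell markers summed to 9617 to 12257, 5288 to 10535 and 4655 to 13137 in the same order, with 5 of 5 higher in the first than in the second wild-type run, none called. None of the markers measured on either list was at 0, and the part of these cells in the values of Foxf1, Gata6, Tbx18 and Tshz3 was not tested. Urothelial markers were above wild type in 9 of 10 cases in SMGA/EGFP (median 0.17) and 10 of 10 in SMAA/EYFP (median 0.26), none called, with none at 0. Their within-run medians were 0.068 and 0.316. Their summed intensity was 218248 to 254084 in SMGA/EGFP, 243455 to 269939 in SMAA/EYFP and 190088 to 242628 in wild type, and their part in the lower values of the regulators was not tested. Smooth muscle markers had medians of -0.02 in both reporter groups, and within-run medians of 0.025 and -0.067. In the first wild-type run against the second 8 of 8 were lower, with a median of -0.17, none called. Fibroblast markers lay below wild type in 5 of 7 genes in SMGA/EGFP (median -0.01) and 6 of 7 in SMAA/EYFP (median -0.09), none called. Their within-run medians were -0.020 and -0.225. Pericyte markers lay below wild type in 2 of 6 genes in SMGA/EGFP (median 0.04) and 3 of 6 in SMAA/EYFP (median -0.05), none called. The part of fibroblasts and pericytes in the values of the regulators was not tested.

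Between the reporter groups, and between the 2 wild-type runs, no regulator passed the test either. In SMGA/EGFP against SMAA/EYFP 0 of 24 probe sets had an adjusted p under 0.05, where 0.0799% of all probe sets did, and 3 had an unadjusted p under 0.05, where 9.32% of all did. The 9 reference differences ran from -0.29 for Foxf1 to 0.37 for Mef2c, with 5 below 0 and a median of 0.00, and none was without overlap. With the run as a block, which also subtracts the difference between the wild-type runs, all 9 were above 0. Their median was 0.17, where all genes had 0.003, and they ran from 0.05 for Tbx18 to 0.39 for Myocd. The share of all genes above 0 with the block was not counted. In the first wild-type run against the second, 0 passed, where 0% of all probe sets did, and 2 had an unadjusted p under 0.05, where 8.16% of all did. Reference levels of 8 of 9 regulators were lower in the first run, with a median of -0.17 where all genes had -0.03, and 1 of the 9, Foxf1, was without overlap, where 13.5% of all probe sets were. That median was of the same size as those of the reporter groups against wild type, -0.16 in both.

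No contractile gene controlled by serum response factor and myocardin was called. Of 25 smooth muscle targets 0 passed the test in either direction, and their medians were -0.02 in SMGA/EGFP and -0.03 in SMAA/EYFP, beside -0.02 and 0.01 over all genes. Below wild type lay 19 of 25 in SMGA/EGFP and 18 of 25 in SMAA/EYFP, with within-run medians of 0.02 and -0.08. In the first wild-type run against the second 23 of 25 were lower, with a median of -0.10. Myh11, smooth muscle myosin heavy chain, lay at 0.02 ± 0.05 and -0.02 ± 0.05, and Tagln, the actin-binding protein transgelin, at -0.02 ± 0.06 and 0.01 ± 0.06. Of the genes whose promoters drive the reporters, Acta2 lay at -0.02 ± 0.05 in both groups and Actg2 at 0.01 ± 0.03 and 0.00 ± 0.03. Their normalized log2 levels, 15.95 and 15.82 in wild type, are near the top of the array, so these small differences do not show that their RNA was level. Summed intensity of the 25 targets was 757378 to 955568 in SMGA/EGFP, 748653 to 950095 in SMAA/EYFP and 778558 to 934791 in wild type. Whether differences of other bright targets were reduced in the same way was not tested. The smallest p on the list belonged to Nexn, the actin filament protein nexilin, at -0.20 ± 0.15, and Tgfb1i1, a focal adhesion coactivator, at -0.25 ± 0.19, in SMGA/EGFP, and to Vcl at -0.12 ± 0.06 and Nexn at -0.26 ± 0.15 in SMAA/EYFP. Between the reporter groups they were Vcl at 0.11 ± 0.07 and Pgm5, a phosphoglucomutase relative of adhesion sites, at 0.13 ± 0.10, SMGA/EGFP higher.

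Immediate early and cytoskeletal targets of serum response factor were more scattered. Of 15 genes 13 were tested and 0 called, with medians of 0.03 in SMGA/EGFP and 0.08 in SMAA/EYFP. Ccn2, a secreted matricellular protein, had a difference of 1.02 ± 0.47 (adjusted p 0.718) in SMGA/EGFP, and Egr1, an early zinc finger factor, -0.46 ± 0.28. In SMAA/EYFP Fos lay at 0.66 ± 0.32 and Junb at 0.52 ± 0.29, both with adjusted p of 0.991. Fos and Junb are subunits of the AP-1 factor. Fos and Egr1 were lower in SMGA/EGFP than in SMAA/EYFP by -0.85 ± 0.37 and -0.54 ± 0.32 (adjusted p 0.516 and 0.628). The score of this list ran from -0.61 to 0.50 over the wild-type arrays alone.

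Cofactors and antagonists, 22 of 24 tested, had 0 called and medians of 0.04 and -0.02. In SMGA/EGFP Klf5, a zinc finger factor, lay at 0.45 ± 0.20, and Twist1, a basic helix-loop-helix factor, at -0.39 ± 0.18, both with adjusted p of 0.718. In SMAA/EYFP Elk3, a ternary complex factor, lay at -0.33 ± 0.14 and Msx2, a homeobox factor, at 0.38 ± 0.18. Hopx, a homeodomain protein that binds serum response factor, was lower in SMGA/EGFP than in SMAA/EYFP by -0.42 ± 0.16 (adjusted p 0.479), and Elk1, a further ternary complex factor, by -0.47 ± 0.25.

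Signalling regulators of MEF2, all 16 tested, had 0 called and medians of -0.11 in SMGA/EGFP and -0.04 in SMAA/EYFP. The calcineurin subunit genes Ppp3cb and Ppp3ca had the smallest p in SMGA/EGFP, at -0.17 ± 0.09 and -0.13 ± 0.07. In SMAA/EYFP they were Mapk7, the kinase ERK5, at -0.44 ± 0.20, and Ppp3r1, the regulatory subunit of calcineurin, at 0.18 ± 0.09. Between the reporter groups the histone deacetylase Hdac5 differed by 0.49 ± 0.22 and the kinase Camk4 by 0.63 ± 0.34, SMGA/EGFP higher, with adjusted p of 0.527 and 0.586.

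Paralogues and other mesenchymal regulators, 18 of 21 tested, also had 0 called, with medians of -0.09 and -0.14. Below wild type lay 11 of 18 in SMGA/EGFP and 15 of 18 in SMAA/EYFP, with within-run medians of -0.06 and -0.18. Gata5, a relative of Gata6, had the largest difference of the list in SMGA/EGFP at -0.94 ± 0.26 (adjusted p 0.569), and Zfpm2, a cofactor of GATA factors, lay at -0.63 ± 0.25. In SMAA/EYFP the homeobox gene Meis2 lay at -0.39 ± 0.16 and Tshz2, the relative of Tshz3, at -0.31 ± 0.17. Prrx1, a homeobox gene of mesenchyme, was higher in SMGA/EGFP than in SMAA/EYFP by 0.75 ± 0.22 (adjusted p 0.372), and Tshz2 by 0.60 ± 0.20. Hedgehog and BMP genes, 10 of 12 tested, had 0 called and medians of -0.18 and -0.08. Ptch1, the Hedgehog receptor, and Gli2, its transcriptional effector, lay at -0.22 ± 0.10 and -0.30 ± 0.15 in SMGA/EGFP, and Gli3 and Gli2 at -0.29 ± 0.13 and -0.22 ± 0.15 in SMAA/EYFP. Ptch1 and Bmp5, a secreted ligand, differed between the reporter groups by -0.26 ± 0.12 and -0.43 ± 0.22, SMGA/EGFP lower. In the first wild-type run against the second, the genes of smallest p on the 6 lists, none called, were Nexn (-0.33) and Tgfb1i1 (-0.42), Mcl1 (0.18) and Tpm4 (0.14), Csrp2 (-0.22) and Twist1 (0.35), Camk4 (0.52) and Mapk14 (-0.25), Gata5 (-0.60) and Zfpm2 (-0.55), and Ptch1 (-0.24) and Hhip (-0.25). Leaving out wild type 4 called none of these 6 lists' genes.

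**Figure D4:**
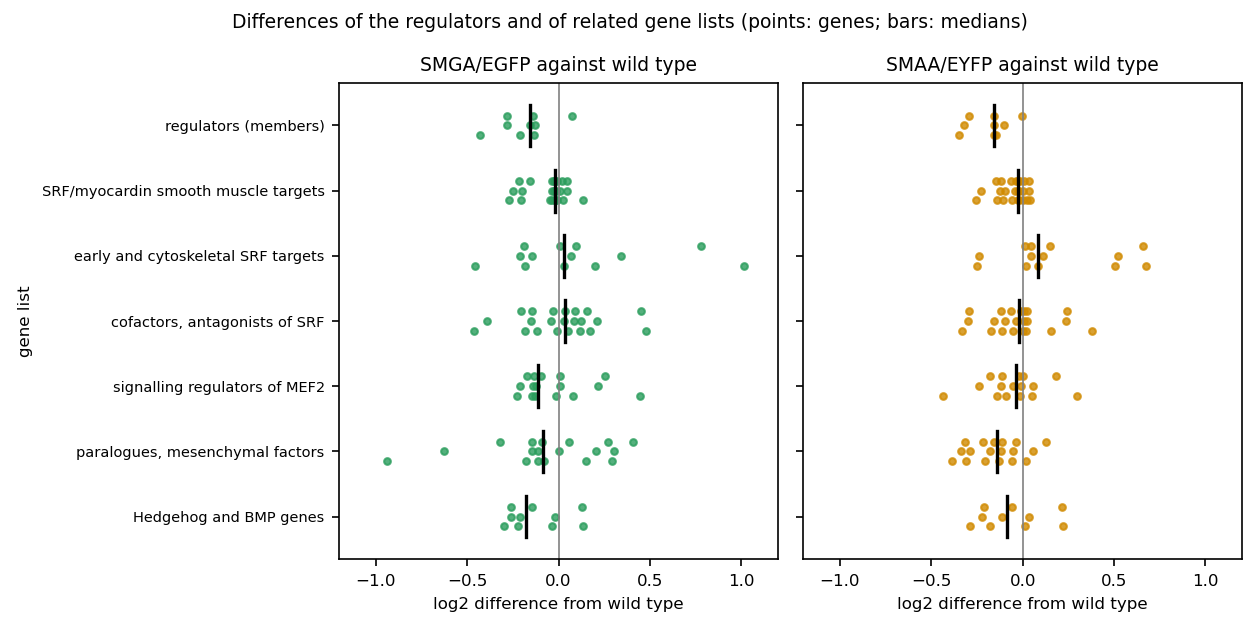
Log2 difference from wild type of the 9 regulators and of the tested genes of 6 related lists in SMGA/EGFP (left) and SMAA/EYFP (right), 1 point per gene and a bar at each median. The regulators' medians are -0.16 in both panels, the medians of the smooth muscle targets are -0.02 and -0.03, and the early targets reach 1.02.

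Most pairs of regulators correlated above 0 across the 12 arrays. Of the 36 pairs of reference probe sets 32 had a Pearson r above 0 and the median was 0.40, from 0.80 for Mef2a with Mef2d to -0.36 for Mef2c with Foxf1. With each run centred first, 30 of 36 were above 0. Over all pairs of the 11730 tested genes 50.5% were above 0 with a median of 0.01, and 50.1% with each run centred. All pairs come from the same arrays and share their RNA, amplification and scaling, so these values describe the arrays only.

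The genes whose pattern came closest to each regulator were ranked by Pearson r over the 12 arrays among 11729 other genes. For Myocd these were Klhl4 (0.86) and Palld (0.86), the latter the actin-associated protein palladin. For Srf they were Hmox1 (0.95), which encodes heme oxygenase, and Crybg3 (0.93). Mef2a was followed by Ifi27 (0.96) and Susd2 (0.95), Mef2c by Usp20 (0.91) and Cilp (0.89), and Mef2d by Map7d1 (0.92) and Marchf2 (0.90). Foxf1 was followed by Micall1 (0.97) and Zbtb2 (0.92), Tshz3 by Dlgap4 (0.91) and Zscan10 (0.90), Tbx18 by Gpsm1 (0.90) and Tnxb (0.89), and Gata6 by Tmem141 (0.94) and Dhrs7 (0.92). Without wild type 4 the same pairs had r between 0.86 and 0.99. With 12 arrays and 11729 genes the highest values are large by selection alone.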

How the data were processed

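RNA from 12 whole bladders was measured on one-colour arrays. The authors deposited linear intensities for each probe set, for which the submitters' processing notes name GCOS; the summary algorithm is not given in the sources used here. Median intensity per array ran from 229.4 to 305.9, and 8.35% to 10.6% of values lay below 16. The trimmed mean, taken without the highest and lowest values of an array, ran from 1499.84 to 1500.01. The deposited arrays were thus already on a common scale.

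Of 45101 probe sets 64 controls were removed. Values were taken as log2(intensity + 16), quantile-normalized, and tested where the mean exceeded the median of all means (log2 8.02; 22518 probe sets), with limma 3.58.1 in R 4.3.3 (intensity trend, all 12 arrays, two-sided), Benjamini-Hochberg adjustment and a threshold of 0.05. The code was tested on simulated data with planted differences larger than those of the regulators' reference probe sets. That test does not show whether differences of the regulators' size would be called. Symbols came from GEO's platform annotation: 34945 probe sets had 1 symbol, 932 several and 9160 none listed. The record run entered as a block in a fit of 4 cells. Alternatives covered normalization, pseudocount, filter, trend, weights, arrays in the fit and each array left out. The arrays' number limits the precision.

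Named were all 9 regulators, the 2 genes of smallest p per pathway list and comparison, genes of these and the marker lists that were called, the 2 best-correlated genes per regulator, and 4 reference genes of muscle (Acta2, Actg2, Myh11, Tagln). The members, lists and tests were chosen with earlier results of these data known.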

Additional observations from a re-analysis of the deposited data

Results flagged for a closer look

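Within groups of 4 to 10 samples, an array was singled out where its gap to the nearest other array, divided by the range of the group, exceeded Dixon's critical value at the 95% level. Chance marks about 1 in 20 groups, and 2 of the 26 member probe sets were marked in wild type. For Mef2a 1452347_at, wild type 6 was the low array, with a gap of 0.788 of the range. For Mef2d 1421388_at, wild type 1 was the low array, with a gap of 0.887. Wild type 4 was marked for Xist (0.902), Eif2s3y (0.939), Kdm5d (0.902) and Uty (0.895): it read 29604 for Xist and 28.0 and 48.6 for Kdm5d and Uty, where the other 11 arrays read 937.8 to 1465 and 724.5 to 1199.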

How the results depend on the processing

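The number of regulators called was 0 in every comparison under every alternative run, with the smallest limma adjusted p of a reference probe set at 0.241 for SMGA/EGFP and 0.307 for SMAA/EYFP against wild type, 0.351 between the reporter groups and 0.149 between the wild-type runs. Some differences changed sign, among them that of Foxf1 between the reporter groups, which was -0.288 without the block. Between the reporter groups the block also subtracts the difference between the wild-type runs, -0.354 for Foxf1. For the other alternatives the cause was not tested. With the run as a block, SMGA/EGFP against SMAA/EYFP became 0.066 for Foxf1, 0.325 for Gata6, 0.167 for Mef2d, 0.053 for Srf and 0.046 for Tbx18, and SMGA/EGFP against wild type became 0.094 for Gata6 (0.093 with the 6 arrays of that run alone). With arrays centred on their median, which moved the median of all probe sets in SMGA/EGFP against SMAA/EYFP from -0.02 to -0.12, that comparison became -0.136 for Mef2a and -0.079 for Tshz3, and Gata6 in SMAA/EYFP became 0.043. With values as deposited, Gata6 in SMAA/EYFP became 0.003 and Mef2a between reporter groups -0.012. With array weights, Mef2a and Tshz3 between reporter groups became -0.011 and -0.033, and Mef2c in SMGA/EGFP -0.044. With the compared arrays alone, Mef2d between reporter groups became 0.000.

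Other probe sets of a gene changed the sign for Gata6 in SMAA/EYFP (0.007 and 0.389) and between wild-type runs (0.104), for Mef2a in SMAA/EYFP (0.134), between reporter groups (-0.004 and -0.379) and between wild-type runs (0.163, 0.271 and 0.058), for Mef2c in SMGA/EGFP (-0.048), for Mef2d in SMAA/EYFP (0.308), between reporter groups (0.176) and in SMGA/EGFP (0.011), and between reporter groups for Myocd (-0.088) and Srf (0.036).

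Leaving out each array gave ranges that crossed 0 for these results. In SMAA/EYFP against wild type they were -0.354 to 0.054 for Foxf1 and -0.069 to 0.092 for Gata6. In SMGA/EGFP against wild type they were -0.287 to 0.084 for Gata6, -0.082 to 0.215 for Mef2c and -0.271 to 0.036 for Myocd. Between reporter groups they were -0.282 to 0.089 for Gata6, -0.097 to 0.102 for Mef2a, -0.152 to 0.127 for Mef2d, -0.197 to 0.083 for Tbx18 and -0.078 to 0.096 for Tshz3. Between wild-type runs they were -0.023 to 0.262 for Mef2c and -0.252 to 0.014 for Tbx18.

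The count over all probe sets called was less steady. In SMGA/EGFP against wild type it was 14, and 5 with the filter at the 75th percentile, 8 with the compared arrays alone, 10 with the run as a block, 1 with the 6 arrays of that run alone, 6 without SMGA/EGFP 2, and 9 without SMGA/EGFP 1 or any of wild type 3, 4 and 6. In SMAA/EYFP it was 0, and 5 with median centring or array weights. Between reporter groups it was 18, and 10 with the 75th percentile filter, 2 with the block, 9 without SMGA/EGFP 2 and 4 without SMAA/EYFP 2. Between wild-type runs it was 0, and 175 with array weights, 430 without wild type 3, and 1 with the lower filter or none. No paired analysis was possible because the labels give the arrays of different groups no shared replicate numbers.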
